A study of Brassica napus with 15 samples.

Results

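The comparison covers the first hours of water uptake by oilseed rape (Brassica napus) seeds, in which RNA levels of seeds at 2 hours after imbibition (hai) were set against those of dry seeds (0 hai). Its members are the 101040 coding genes of a table of 105276 rows, which were chosen by their gene identifier and not by any measured value. They were compared in 6 of 15 libraries, 1 at 2 hai and 1 at 0 hai for each of the winter accessions C129, C033 and C032. At 2 hai the seeds had been in germination vessels with distilled water, in the dark at 20°C, whereas the 0 hai samples were mature seeds before any water was given. For each library the RNA of 3 collections, each of 30 seeds, was combined, so no error exists within an accession at a time, and the 3 accessions served as the replicates. A p-value sets the mean change over the 3 accessions against a spread drawn largely from all genes. It thus reflects the agreement of the accessions on a single gene only in part. A response of 1 accession alone can enter both the mean and the spread.

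A mature seed carries mRNAs made during ripening on the mother plant, many of them for oil-body coats, protective late embryogenesis abundant (LEA) proteins and small heat shock proteins. Water uptake restarts respiration and protein synthesis, which draws at first on these stored mRNAs. Abscisic acid (ABA), through the transcription factor ABI3, holds the seed in its ripening program. Gibberellin (GA) acts through GID1 receptors, which bring about the breakdown of DELLA repressors such as RGL2, and promotes germination. B. napus holds an A and a C subgenome, so most genes have several near-identical copies.

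Values are TPM (transcript abundances scaled by gene length and library total), which the authors computed over coding and non-coding rows together. Read equivalents, which are the coverage of a coding gene times its length over the read length, were 22.8 M, 38.5 M and 26.9 M at 2 hai in C129, C033 and C032, against 27.5 M, 19.8 M and 19.4 M at 0 hai. Depth thus differed most between the libraries of C033, and the counting error of faint genes was largest at 0 hai in C033 and C032. Non-coding rows held 15.2, 25.8 and 19.0% of the coverage at 2 hai, against 18.0, 21.9 and 22.3% at 0 hai. The seed markers matched the label. The markers were 7 genes matched to preset loci of oleosins, a caleosin, LEA4-1 and the dormancy gene DOG1. They were at 1.84 to 76.8 TPM at 2 hai and at 1.48 to 81.3 TPM at 0 hai, and none was above 0.50 TPM at 72 hai. A further oleosin-family match outside these loci, BnaC07g31360D, was listed at 0 in every library at 2 and 0 hai. The photosynthesis marker PSAN was at 0.217 TPM in C033 and listed at 0 in the other libraries at 2 hai, and it was listed at 0 in all libraries at 0 hai. The 2 genes matched to LHCB3, of the light-harvesting antenna, were at 0.05 to 1.98 TPM at 2 hai and at 0 to 1.77 TPM at 0 hai. At 72 hai BnaC09g30700D was at 6.45 to 24.8 TPM. BnaC02g44590D, at no more than 0.36 TPM at 2 hai, was only at 1.31 to 1.63 TPM at 72 hai.

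Few coding genes differed between 2 and 0 hai in a way the 3 accessions shared. Of the 36298 genes that reached 1 TPM in 3 or more of the 6 libraries, 20 rose and 6 fell. These are 0.0551% and 0.0165% of the genes tested with limma. A call needed a log2 change in TPM + 1 beyond 1 together with an adjusted p under 0.05. Without the limit on size, 78 genes were higher and 29 lower. At an unadjusted p under 0.05 there were 1432 higher and 573 lower genes, together 5.52% of those tested. The median log2 change of all genes tested was 0.05. These calls depend on the model. Without accession as a pair term 0 genes rose and 1 fell, in a fit of all 15 libraries 2 rose and 0 fell, and after median-of-ratios scaling 4 rose and 3 fell. They also depend on single accessions, since 69 rose and 57 fell without C129, 98 and 37 without C033, and 10 and 7 without C032.

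The groups did not overlap in 19 of the 20 genes that rose and in all 6 that fell, which follows largely from how they were chosen. Over all genes tested, every library at 2 hai was above every library at 0 hai in 483 genes (1.33%) and below in 236 (0.65%). Over all genes tested, 54 passed the filter on low values only through the 2 hai libraries and 20 only through the 0 hai libraries. Of the 20 genes that rose, 11 were among the former, and 5 of the 6 that fell were among the latter. These 11 and 5 genes had to differ, so their adjusted p-values are given as a description. Levels were low. The genes that rose were at 0.965 to 11.3 TPM at 2 hai, a median of 81.5 read equivalents per gene and library, and at 0 to 3.66 TPM at 0 hai. Genes called had a median length of 953 bases, against 1401 bases over all genes tested. An Arabidopsis thaliana match was at hand for 2 of the 26, against 3060 of all 101040 coding genes.

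**Figure D1:**
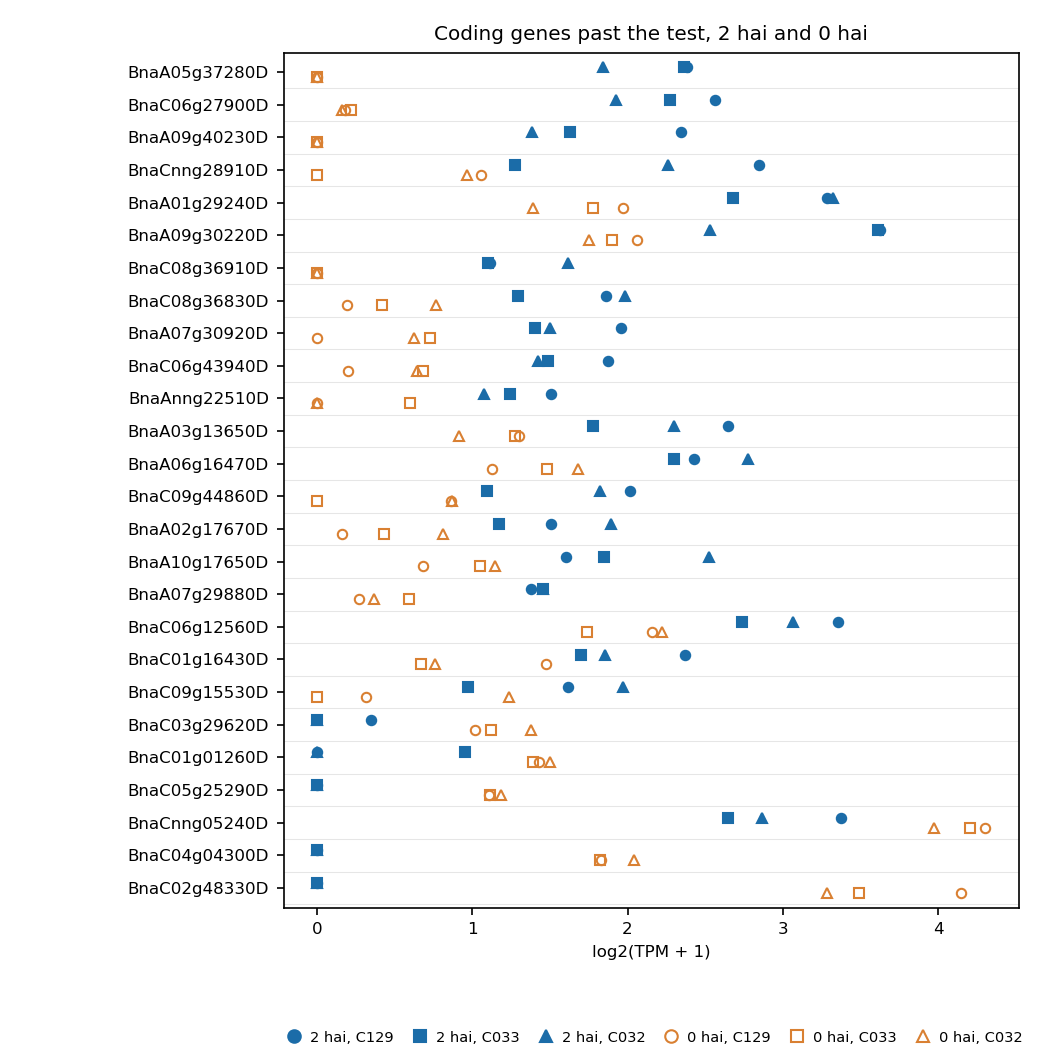
Level, as log2(TPM + 1), of the 20 genes that rose (top) and the 6 that fell (bottom) in each library, with filled blue symbols for 2 hai and open orange symbols for 0 hai, and 1 symbol shape per accession. Genes were chosen by this comparison, so that the groups are apart in every row except BnaC09g15530D, against 1.33% (above) and 0.65% (below) of all genes tested, and 3 genes in each direction lie at 0 in all libraries of 1 time.

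The gene with the largest fitted rise was BnaA05g37280D, matched to AT3G03950 (ECT1), which in Arabidopsis belongs to a family of proteins that bind methylated adenosines in mRNA. It lies on the plus strand of its scaffold in the Chalhoub assembly, from base 39232 to 41000, with 6 exons. It had 4.21, 4.16 and 2.58 TPM at 2 hai in C129, C033 and C032, which correspond to 96.6, 211 and 75.6 read equivalents, and was listed at 0 in all 3 dry-seed libraries. It is one of the genes that passed the filter only through the 2 hai libraries, which fixes the order of the groups, and its limma adjusted p of 3.0e-11 is no support for it. A fold change cannot be given against values listed at 0. At 12 hai it was at 2.83, 0.63 and 4.46 TPM, and at 72 hai no library was above 0.54 TPM, so most of its signal was at 2 and 12 hai. The call was lost without the pair term (adjusted p = 0.25) and in the fit of all 15 libraries (adjusted p = 0.079).

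BnaA06g16470D, the other called gene with a match, corresponds to AT3G48520 (CYP94B3), an Arabidopsis cytochrome P450 that hydroxylates the active hormone jasmonoyl-isoleucine. It is a gene of 1 exon on the minus strand, from base 58486 to 60006 of its scaffold. Its level was 4.38, 3.92 and 5.84 TPM at 2 hai in C129, C033 and C032, against 1.18, 1.79 and 2.21 TPM at 0 hai. The lowest value at 2 hai was above the highest at 0 hai, and the log2 change was 1.07 ± 0.16 (SE, limma adjusted p = 7.9e-05). At 12 hai it stood at 4.99, 4.69 and 5.35 TPM, and at 36 and 72 hai at no more than 0.17 TPM in any library. Its call was lost in 7 of 10 alternatives, among them median-of-ratios scaling, with a change of 1.01 and an adjusted p of 0.12.

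The next largest rises were in genes with no match at hand, whose products are therefore not named. BnaC06g27900D had 4.90, 3.83 and 2.80 TPM at 2 hai in C129, C033 and C032, against 0.14, 0.17 and 0.12 TPM at 0 hai, a fitted log2 change of 2.07 ± 0.18 (SE, limma adjusted p = 6.5e-11). It too passed the filter only through the 2 hai libraries, so that it had to differ. The 3 dry-seed values rest on 2.01 to 2.97 read equivalents each. The gene went on to 23.9 to 28.4 TPM at 72 hai, and its call was lost only without the pair term among 10 alternatives.
BnaA09g40230D had 4.08, 2.10 and 1.61 TPM at 2 hai and was listed at 0 in every dry-seed library, another gene that passed only through 2 hai (limma adjusted p = 1.4e-07). BnaCnng28910D had 6.19, 1.42 and 3.80 TPM at 2 hai, against 1.08, 0 and 0.95 TPM at 0 hai. Its groups did not overlap, but the value at 2 hai in C033 was close to the dry-seed values of the other accessions (log2 change 1.45 ± 0.17, SE, limma adjusted p = 5.0e-07).
BnaA09g30220D had 11.3, 11.2 and 4.78 TPM at 2 hai, against 3.18, 2.73 and 2.37 TPM at 0 hai (log2 change 1.35 ± 0.16, SE, limma adjusted p = 3.4e-05). It had the highest TPM at 2 hai among the genes that rose. Its later values in C129, C033 and C032 alternated with listed zeros. They were 15.7, 8.03 and 0 TPM at 12 hai, 0, 6.49 and 9.01 TPM at 36 hai, and 5.17, 4.27 and 0 TPM at 72 hai. Whether these zeros are failed estimates was not tested.

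A set of 5 genes that rose at 2 hai was above 10 TPM in all 3 accessions at 12 hai, and their first rise was small beside the level they had then. Their calls at 2 hai were fragile. BnaA02g17670D and BnaA07g29880D, which passed the filter only through the 2 hai libraries, were called in 1 of 10 alternatives each, BnaA10g17650D in 3 of 10, BnaC06g12560D in 3 of 11 and BnaA01g29240D in 4 of 11. BnaA01g29240D had 8.75, 5.41 and 9.01 TPM at 2 hai in C129, C033 and C032, against 2.91, 2.42 and 1.62 TPM at 0 hai (log2 change 1.38 ± 0.17, SE, limma adjusted p = 3.9e-05). At 12 hai it was at 103, 52.4 and 75.3 TPM, and at 36 hai at 4.54, 6.40 and 2.92 TPM, so that its 12 hai level was not kept in any accession. At 72 hai it was higher again than at 36 hai, at 18.9, 13.5 and 6.68 TPM.
BnaA02g17670D had 1.84, 1.25 and 2.72 TPM at 2 hai, against 0.12, 0.35 and 0.76 TPM at 0 hai, and reached 31.4 to 69.9 TPM at 12 hai. BnaA10g17650D had 2.04, 2.60 and 4.75 TPM at 2 hai, against 0.61, 1.07 and 1.21 TPM at 0 hai, and reached 33.1 to 44.6 TPM at 12 hai. BnaA07g29880D had 1.60, 1.75 and 1.75 TPM at 2 hai, against 0.21, 0.51 and 0.29 TPM at 0 hai, and reached 14.8 to 55.0 TPM at 12 hai. Among these 5 genes it had the narrowest range at 2 hai.
BnaC06g12560D had 9.24, 5.68 and 7.37 TPM at 2 hai, against 3.46, 2.35 and 3.66 TPM at 0 hai, and was still at 44.4 to 73.4 TPM at 36 hai. Of all 20 genes that rose at 2 hai, 11 were higher at 12 hai than at 2 hai in each accession. The 12 hai libraries share nothing with the dry-seed libraries, but this count uses the 2 hai libraries that also chose the genes and was not tested.

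**Figure D2:**
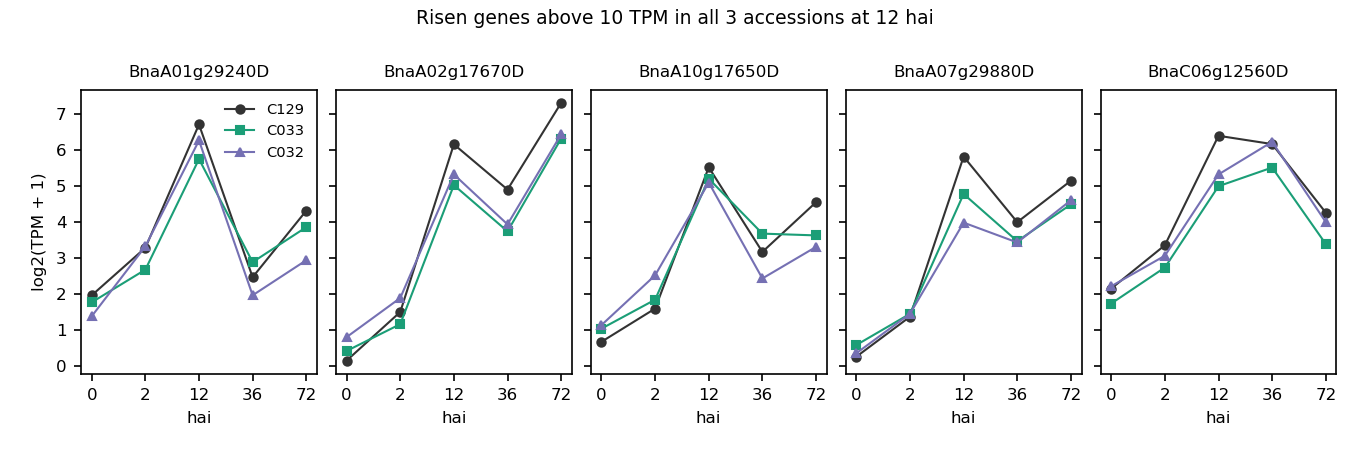
Level, as log2(TPM + 1), over 0, 2, 12, 36 and 72 hai of the 5 genes that rose at 2 hai and were above 10 TPM in all 3 accessions at 12 hai, with 1 line per accession and 1 library per point. Every line is higher at 2 hai than at 0 hai and higher again at 12 hai, and BnaA01g29240D is back below its 2 hai level at 36 hai in C129 and C032.

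The other 9 genes that rose were at 0.965 to 5.25 TPM at 2 hai. BnaC08g36910D and BnaC08g36830D lie on the same scaffold, as do BnaA07g30920D and BnaA07g29880D. BnaC08g36910D, a gene of 201 bases, was listed at 0 in all dry-seed libraries and had 1.16, 1.15 and 2.07 TPM at 2 hai, which are only 4.46, 9.76 and 10.1 read equivalents. BnaC09g15530D was the one gene whose groups overlapped, with 2.07, 0.965 and 2.91 TPM at 2 hai, against 0.25, 0 and 1.36 TPM at 0 hai in C129, C033 and C032.

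The 6 genes that fell were all on the C subgenome, which holds 18926 of the 36298 genes tested. Of the 20 that rose, 11 were on the A subgenome and 9 on the C subgenome. None of the 6 had a match at hand, but only 3060 of all 101040 coding genes have one. BnaC02g48330D was listed at 0 in all 3 libraries at 2 hai, against 16.7, 10.3 and 8.72 TPM at 0 hai, and the dry-seed values rest on 257, 134 and 110 read equivalents. It passed the filter only through the 0 hai libraries and so had to differ, which also holds for its limma adjusted p of 2.1e-19. All the other genes that fell, except BnaCnng05240D, passed in the same way. It did not stay at 0, since C129 had 17.9 TPM at 12 hai and C033 7.50 TPM at 36 hai, and whether its zeros are failed estimates was not tested. BnaC04g04300D was likewise listed at 0 in all libraries at 2 hai, against 2.56, 2.54 and 3.12 TPM at 0 hai, and was at 14.96 TPM in C129 at 36 hai. BnaC05g25290D was listed at 0 at 2 hai, against 1.16, 1.16 and 1.27 TPM at 0 hai, and was listed at 0 in all but 1 of the later libraries.
BnaCnng05240D was the only fallen gene detected in every library. It had 9.39, 5.28 and 6.27 TPM at 2 hai, against 18.7, 17.5 and 14.7 TPM at 0 hai, a log2 change of -1.20 ± 0.14 (SE, limma adjusted p = 3.1e-07). At 12 hai it was again at 13.5 to 35.2 TPM. The remaining BnaC01g01260D and BnaC03g29620D had at most 1.83 TPM in any library at 0 hai.

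Exact zeros were more frequent in one direction. There were 316 coding genes above 0 in all 3 libraries at 2 hai and listed at 0 in all 3 at 0 hai, and 34 with the opposite pattern. None of the 316 exceeded 4.75 TPM. Depth was higher at 2 hai in C033 and C032, and its part in this count was not tested. A listed 0 can also be a failed estimate, since 73 coding genes were above 20 TPM in 1 of the 6 libraries and at 0 in another.

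Changes were hardly shared by the accessions. Over the genes tested, the median log2 change of C129 was 0.04, that of C033 -0.04 and that of C032 0.14, with standard deviations of 0.34, 0.32 and 0.34. The correlation of these changes across genes was -0.02 between C129 and C033, 0.07 between C129 and C032 and 0.07 between C033 and C032. These are descriptions over 36298 genes, which are not independent, and no 2 accessions share a library. A change in the same direction in all 3 was seen in 5900 genes upward and 2493 downward, 16.3% and 6.87% of those tested.
With a ratio of TPM + 1 over 2 as the rule and no test, 666, 335 and 362 of 101040 coding genes were up in C129, C033 and C032, and 252, 206 and 254 were down. That is 0.659, 0.332 and 0.358% up and 0.249, 0.204 and 0.251% down. In all 3 accessions 5 genes were up (0.00495%) and 4 down (0.00396%), while 125 genes were up in 1 accession and down in another. The 5 are BnaA05g37280D, BnaC06g27900D, BnaA09g40230D, BnaCnng28910D and BnaC08g36910D. With 0.1 TPM added in place of 1 TPM, 258 were up and 51 down in all 3.

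Libraries differed more between accessions than between the 2 times of an accession. Across the genes tested, log2(TPM + 1) at 2 hai correlated with that at 0 hai of the same accession at r = 0.976, 0.980 and 0.977 (C129, C033 and C032). Between accessions r was 0.889 to 0.902 at 2 hai and 0.889 to 0.912 at 0 hai. The median absolute log2 difference was 0.15 to 0.21 between the times of an accession, against 0.32 to 0.47 between accessions at 1 time.
Change also varied with gene length in a way that differed by accession. In the 1001 genes of 4000 bases or more the median log2 change of C129 was 0.19, that of C033 -0.14 and that of C032 0.25. In the 2149 genes under 500 bases it was 0.09, -0.07 and -0.03. Genes of the A and C subgenomes did not stand apart, since their medians were 0.04 and 0.05 for C129, -0.04 and -0.04 for C033, then 0.14 and 0.13 for C032.

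Later steps moved many more genes. With the same paired limma fit on 6 libraries, 5636 genes were higher and 1167 lower at 12 hai than at 2 hai, 17.3% of 39367 tested. At 36 hai against 12 hai the share was 36.7%, and at 72 hai against 36 hai it was 23.7%, against 0.0716% at 2 hai against 0 hai. The median absolute log2 change at 2 hai against 0 hai was 0.15, 0.16 and 0.21 for C129, C033 and C032. At 12 hai against 2 hai it was 0.60, 0.46 and 0.46. The smallest of the later values was thus over the largest of the first step, but neighbouring steps share libraries and the difference was not tested.

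**Figure D3:**
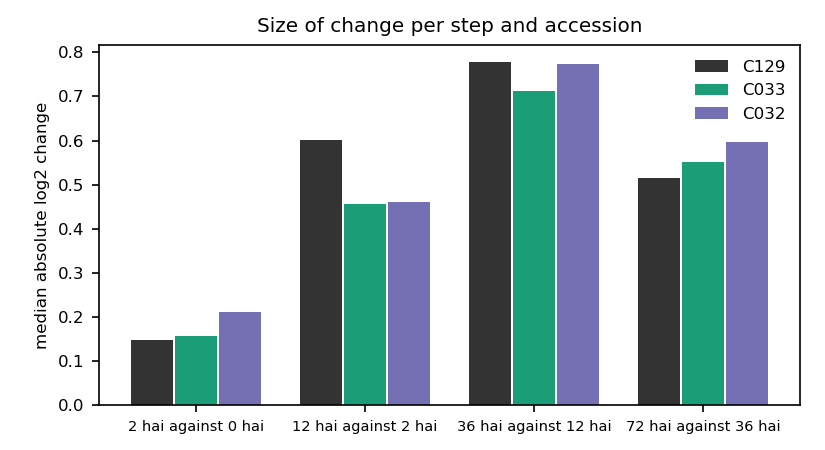
Median absolute log2 change in TPM + 1 for each step between neighbouring sampling times (x axis), with 1 bar per accession over the genes tested in that step. The bars of 2 hai against 0 hai lie between 0.15 and 0.21, and those of every later step lie at 0.46 or above.

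The loci whose identifiers stand in the study's text or primer list, mostly of the ABA and GA pathways, were examined one by one. Of 16 such loci 13 passed the filter, and 0 of these rose or fell. Their median log2 change was 0.02, against 0.05 over all genes tested, and the range was -0.16 to 0.28. The 3 that did not pass are BnaA09g13880D (NAC25), BnaA01g00730D (SPT) and BnaC05g01110D (HFR1), with at most 0.36 TPM in any of the 6 libraries.
The study's own quantitative PCR primers are shown for HSP17.6, RGL2 and ABI3 because the primer list gives 1 pair for the copies of each. The copies' own sequences were not compared here. Bases are in lower case and none is marked.
BnaHSP17.6-F: aatcctcgaagacatgctaga
BnaHSP17.6-R: ccaggcatgtccaccacgaa
BnaRGL2-F: tcgctacttacttcgcccaa
BnaRGL2-R: tgcaaagcctcttcgaacga
BnaABI3-F: gactcaaatcggagaagtct
BnaABI3-R: cagggacattaggccaatac
How the authors' counting treated reads that fit several copies is not given in the sources used here, so values of single copies are uncertain.

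RGL2, the DELLA repressor of germination, had the lowest p of the 13 loci tested, without passing the test. BnaC05g47760D (minus strand, bases 77852 to 79214 of its scaffold) had 33.1, 22.3 and 27.8 TPM at 2 hai in C129, C033 and C032, against 28.5, 19.1 and 20.3 TPM at 0 hai. It was higher at 2 hai in 3 of 3 accessions, but the groups overlapped, and the log2 change of 0.28 (95% interval 0.02 to 0.55) had a limma adjusted p of 0.84. Its A copy BnaA05g32640D had 36.7, 42.0 and 39.3 TPM at 2 hai, against 30.6, 37.5 and 34.5 TPM at 0 hai, also higher in 3 of 3, with a log2 change of 0.20 (95% interval -0.06 to 0.46).
ABI3, the ripening regulator, had no shared direction. BnaA03g37510D had 61.9, 42.5 and 60.9 TPM at 2 hai, against 51.1, 46.5 and 53.0 TPM at 0 hai, lower at 2 hai in C033 alone (log2 change 0.11, 95% interval -0.15 to 0.38). BnaC03g44820D had 38.2, 26.0 and 40.3 TPM at 2 hai, against 34.0, 29.8 and 29.1 TPM at 0 hai, with the same exception (log2 change 0.14, 95% interval -0.13 to 0.42).
The GA receptor gene GID1a (BnaC05g46680D) had 60.03, 36.4 and 18.8 TPM at 2 hai, against 59.3, 41.0 and 17.5 TPM at 0 hai. Its accessions differed more than its times did (log2 change -0.02, 95% interval -0.28 to 0.25).
Of the GA synthesis genes, GA1 (BnaA09g01090D) had 3.28, 1.70 and 1.68 TPM at 2 hai, against 2.88, 1.72 and 1.41 TPM at 0 hai. KO1 (BnaC07g28980D) had 17.56, 16.9 and 16.3 TPM at 2 hai, against 23.7, 16.4 and 11.8 TPM at 0 hai, lower at 2 hai in C129 and higher in C032. The log2 change of KO1 was 0.02 (95% interval -0.27 to 0.32).
PIL5 (BnaC07g00780D), in Arabidopsis a light-labile repressor of germination, had 11.9, 6.82 and 9.02 TPM at 2 hai, against 10.9, 6.53 and 8.43 TPM at 0 hai. DOF6 (BnaA02g06470D) had 5.12, 5.60 and 5.81 TPM at 2 hai, against 5.16, 5.08 and 6.20 TPM at 0 hai. NF-YC9 (BnaA09g48620D), a subunit of a trimeric transcription factor, had 15.4, 13.9 and 11.5 TPM at 2 hai, against 13.8, 15.2 and 11.9 TPM at 0 hai. For these 3 genes the interval of the log2 change lay within -0.28 to 0.36.

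**Figure D4:**
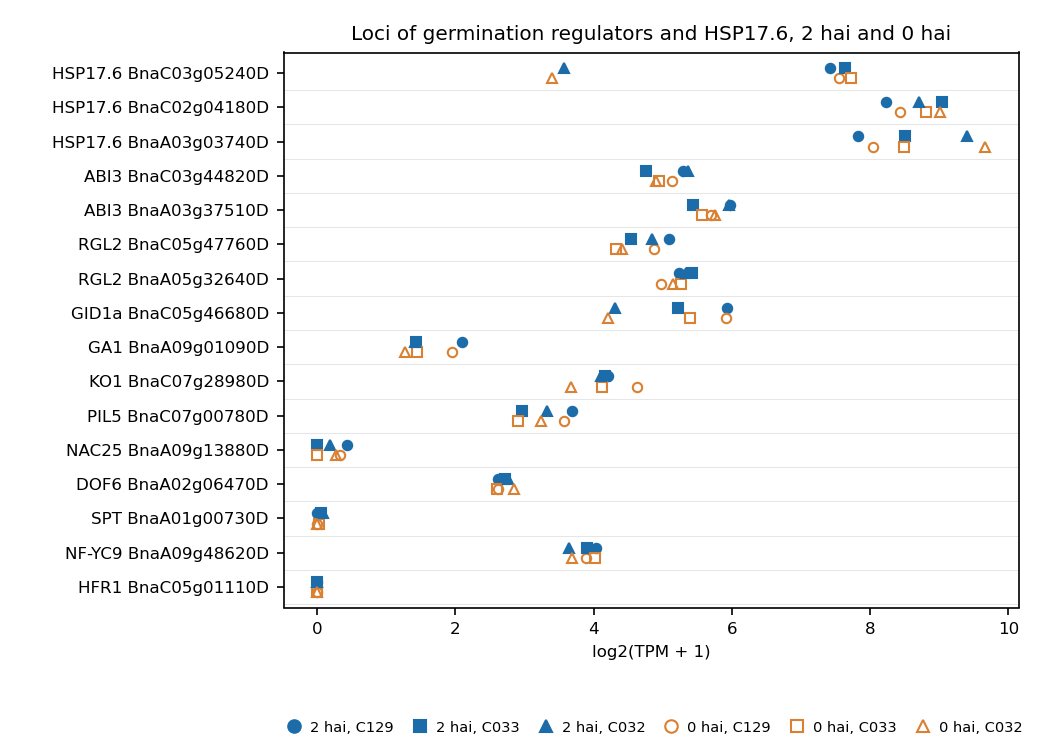
Level, as log2(TPM + 1), of the 16 loci identified in the study's text or primer list in each library, with filled blue symbols for 2 hai and open orange symbols for 0 hai, and 1 symbol shape per accession. In the tested loci the symbols of 1 accession at both times lie close together, and the BnaC03g05240D copy of HSP17.6 is far lower in C032, with 10.9 TPM at 2 hai and 9.58 TPM at 0 hai.

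HSP17.6 encodes small heat shock proteins that keep other proteins soluble. Its copies, each a single exon, included the highest values among the named loci in every library, although BnaC03g05240D was low in C032. BnaA03g03740D had 225, 363 and 674 TPM at 2 hai in C129, C033 and C032, against 263, 357 and 809 TPM at 0 hai (log2 change -0.16, 95% interval -0.42 to 0.10). BnaC02g04180D had 298, 526 and 419 TPM at 2 hai, against 343, 447 and 516 TPM at 0 hai (log2 change -0.09, 95% interval -0.36 to 0.18). BnaC03g05240D had 170, 198 and 10.9 TPM at 2 hai, against 186, 211 and 9.58 TPM at 0 hai. In each copy the groups overlapped, and no copy was lower at 2 hai in all 3 accessions.

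Gene lists were described by their counts and medians. Their members were largely taken from genes that the study reported as changing during germination, so they are no sample of all genes of a kind. No member of any list rose or fell. For each list the count called is 0, against 0.0551% and 0.0165% of all genes tested.
Among 9 genes for oil bodies, LEA and water-stress proteins, 7 were tested, with a median log2 change of -0.17 against 0.05 over all genes. Of the 7, 4 were lower at 2 hai in all 3 accessions, against 6.87% of all genes tested. The others were OLE2 (BnaA07g14960D, log2 change 0.02), DOG1 (BnaAnng11390D, 0.10) and a LEA4-1 copy (BnaC05g24660D, -0.17) that was higher at 2 hai in C129. BnaC09g27370D (OLE3), which coats oil bodies, had 32.4, 34.6 and 37.2 TPM at 2 hai, against 36.3, 38.2 and 56.5 TPM at 0 hai (log2 change -0.30 ± 0.13, SE, limma adjusted p = 0.79). BnaC05g24760D (LEA4-1) had 20.0, 18.0 and 19.0 TPM at 2 hai, against 21.0, 22.9 and 24.6 TPM at 0 hai. All 3 libraries at 2 hai were below those at 0 hai, as in 0.65% of all genes tested. The log2 change was -0.25 ± 0.13 (SE, limma adjusted p = 0.97). For the caleosin gene BnaC08g12280D the fitted log2 difference was -0.19 ± 0.13 (SE), which did not pass the test. Bulk samples cannot tell fewer cells of a type from less RNA per cell.

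Stress-related transcription factors were mostly at the detection limit in both states, as 23 of 28 did not pass the filter. Of the 5 tested, both copies of NAC102, in Arabidopsis a gene of the low-oxygen response, had the largest values. BnaA06g22900D had 5.26, 4.65 and 5.96 TPM at 2 hai, against 3.90, 2.78 and 4.198 TPM at 0 hai. It was higher in 3 of 3 and without overlap, as were 1.33% of all genes tested (log2 change 0.45 ± 0.15, SE, limma adjusted p = 0.33). BnaC03g50570D had 9.74, 5.12 and 7.36 TPM at 2 hai, against 6.64, 5.16 and 5.11 TPM at 0 hai, and lower at 2 hai in C033 alone. The summed TPM of all 28 was 25.0, 16.1 and 22.0 at 2 hai, against 18.3, 14.3 and 17.4 at 0 hai, higher in 3 of 3 accessions. Of the 13 lists, 3 others also had sums on one side in all 3 accessions. They were higher for ABA and GA genes and for nuclear photosynthesis and lower for oil bodies and LEA proteins. The ABA and GA sum was nearly all 1 gene, the RGL2 copy BnaA05g32640D. It held 36.7, 42.0 and 39.3 of 37.9, 43.1 and 40.1 TPM at 2 hai in C129, C033 and C032. With 3 pairs a two-sided exact sign-flip permutation test cannot go below 0.25, so it cannot pass for any list.
Among 34 other transcription factors 11 were tested, with log2 changes of -0.17 to 0.20. The largest were those of the clock gene PRR3 (BnaC09g35410D, 0.20 ± 0.16, SE), the homeobox gene HB5 (BnaCnng64490D, 0.19 ± 0.16, SE) and ARF2 (BnaC03g52090D, 0.19 ± 0.15, SE).

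Genes of reserve use and metabolism were detected in dry and imbibed seeds alike. Of 13 genes 11 were tested, with a median log2 change of 0.05. BnaA06g22040D, matched to ALDH12A1 of proline breakdown, had 12.2, 9.74 and 6.98 TPM at 2 hai, against 9.98, 7.89 and 4.59 TPM at 0 hai, higher in 3 of 3 (log2 change 0.35 ± 0.14, SE, limma adjusted p = 0.58). ACX2 of fatty acid breakdown, in 2 tested copies, had log2 changes of 0.23 ± 0.17 (BnaA06g24040D) and 0.21 ± 0.15 (BnaC03g49190D).
In the protein synthesis and mRNA decay list 10 of 16 were tested, with a median of 0.02 and a range of -0.20 to 0.46. BnaA07g06200D, for a mitochondrial ribosomal protein, had 1.57, 5.90 and 3.70 TPM at 2 hai, against 1.02, 2.95 and 2.97 TPM at 0 hai (log2 change 0.46 ± 0.16, SE, limma adjusted p = 0.41). The initiation factor gene BnaA02g08040D (eIFiso4G1) had 56.5, 45.0 and 73.0 TPM at 2 hai, against 50.3, 48.9 and 51.5 TPM at 0 hai, lower at 2 hai in C033 alone.
Among 8 chaperone genes 5 were tested. The calnexin gene BnaA06g21300D, for a chaperone of the endoplasmic reticulum, had 2.88, 1.81 and 2.69 TPM at 2 hai, against 2.03, 1.73 and 1.33 TPM at 0 hai (log2 change 0.36 ± 0.17, SE, limma adjusted p = 0.86). The plastid small heat shock gene BnaC01g20320D (HSP21) had 43.7, 72.8 and 114 TPM at 2 hai, against 47.0, 71.9 and 107 TPM at 0 hai.

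Growth genes were mostly under the limit of 1 TPM. In the cell cycle list 0 of 9 passed the filter, 3 of them listed at 0 in all 6 libraries, and none was above 1.41 TPM. The filter was passed by 7 of 42 genes in the list of cell wall and water channels, of which 21 were listed at 0 in all 6 libraries. The 4 copies of KOR1, a cellulase of wall building, were among the 7 and had log2 changes of 0.07 to 0.14. In the list of 9 ABA and GA genes only 1 was tested, the RGL2 copy BnaA05g32640D described above.
Nuclear photosynthesis genes, 8 of 12 tested, had a median log2 change of 0.13. BnaC09g20020D, matched to LIL3.2, a protein of chlorophyll synthesis, had 3.05, 1.97 and 0.96 TPM at 2 hai, against 1.69, 1.69 and 0.35 TPM at 0 hai (log2 change 0.42 ± 0.18, SE, limma adjusted p = 0.67).

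Genes matched to the chloroplast genome did not move alike in the 3 accessions. There are 116 of them on 34 scaffolds, with 42 distinct sets of matches, so many are copies that share reads and they are not independent. Their summed TPM was 9989, 2300 and 11129.5 at 2 hai in C129, C033 and C032, against 3328, 2911 and 9913 at 0 hai. On the log2 scale the ratio for C129 was 1.59, for C033 -0.34 and for C032 0.17, a mean of 0.47 ± 0.998 (SD over 3 accessions, two-sided exact sign-flip permutation p = 0.75). At 2 hai 112 of the 116 were higher than at 0 hai in C129, 4 in C033 and 100 in C032. Dry seeds of C032 thus held about as much of this RNA as imbibed seeds of C129.
In the fit 111 were tested, 0 were called and the median log2 change was 0.49, which rests on C129, since without C129 the mean log2 ratio of the sum was -0.09. Of the most abundant, BnaC09g16570D, matched to ATCG00900 and ATCG01240, had 473, 102 and 434 TPM at 2 hai, against 144, 116 and 430 TPM at 0 hai. BnaC01g27060D, matched to the RNA polymerase gene ATCG00190, had 64.0, 0.16 and 95.5 TPM at 2 hai, against 0.24, 0.22 and 72.2 TPM at 0 hai, and so was near 0 in both C033 libraries and in dry C129.
The 11 genes matched to the mitochondrial genome followed the same order. The summed TPM of the 11 was 850, 178 and 944 at 2 hai, against 245, 242 and 830 at 0 hai. These are log2 ratios of 1.79 in C129, -0.45 in C033 and 0.19 in C032. Most of each sum was BnaCnng12510D, matched to ATMG00090, with 627, 116 and 672 TPM at 2 hai, against 173, 171 and 600 TPM at 0 hai. The share of coverage in non-coding rows was lower at 2 hai in C129 and C032 and higher in C033. These directions are opposite to those of the sums, but their sizes do not follow the same order. The part of this share in the sums was not tested.

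**Figure D5:**
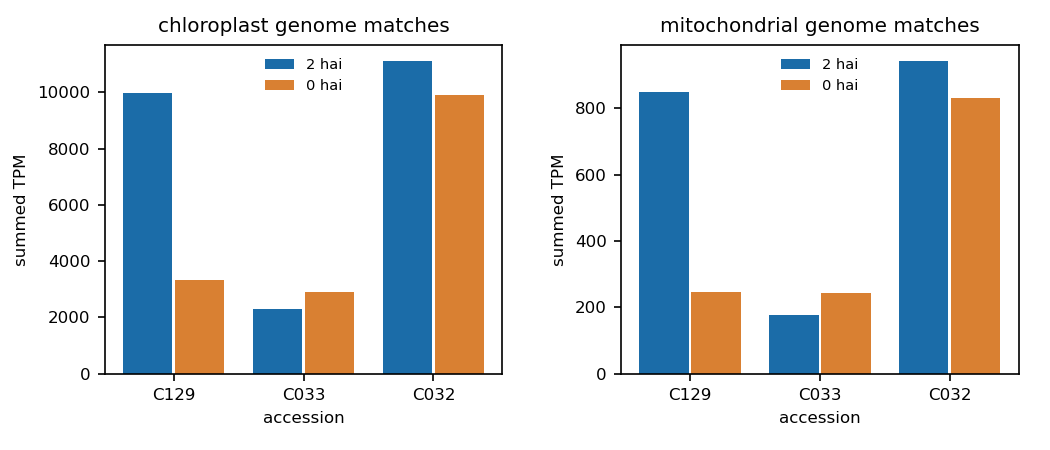
Summed TPM of the 116 genes matched to the chloroplast genome (left) and the 11 matched to the mitochondrial genome (right), with 1 bar for 2 hai (blue) and 1 for 0 hai (orange) in each accession and 1 library per bar. Only in C129 is the blue bar far above the orange one, at 9989 against 3328 TPM and at 850 against 245 TPM, and in C033 it is below.

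The 10 coding genes with the highest mean TPM had no match at hand, and 0 of them rose or fell. BnaCnng12640D had 11389, 16004 and 36705 TPM at 2 hai in C129, C033 and C032, against 6183, 22373 and 26927 TPM at 0 hai, higher at 2 hai in C129 and C032 and lower in C033. In the other 9 the log2 change was -0.15 to -0.01. BnaA06g18100D had 2241, 4838 and 3886 TPM at 2 hai, against 2473, 5037 and 4579 TPM at 0 hai, lower in 3 of 3 accessions (log2 change -0.15 ± 0.13, SE). The 10 genes together held 40966, 49311 and 71027 TPM at 2 hai, against 37320, 58179 and 63164 TPM at 0 hai. In each accession this sum moved in the same direction as BnaCnng12640D, its largest member, and so does not describe the other 9.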

How the data were processed

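Total RNA of pooled seeds was made into libraries with a TruSeq RNA v2 kit, which does not mark strand, and read on a HiSeq2000 as paired ends of 100 bases. The authors used HISAT for mapping to the Chalhoub assembly and StringTie for quantification. Versions of both are not given in the sources used here. The deposited TPM values were computed by StringTie over coding and non-coding rows together. The deposited coverage is the mean read depth of each gene (signal), from which read equivalents were computed as coverage times length over 100.

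Genes that reached 1 TPM in 3 or more of the 6 libraries went into limma 3.58.1 under R 4.3.3 (trend and robust options) on log2(TPM + 1), with time and accession as terms. Calls needed a log2 change beyond 1 and, after Benjamini-Hochberg adjustment, a p under 0.05. A fold change on this scale understates the change of low genes. The fit has 2 residual degrees of freedom, and a median of 46 after sharing the spread across genes. Standard errors and intervals of single genes thus rest mostly on that shared spread. Accession pairs the libraries because both seed samples of a pair are of the same accession. Deviations from the group means correlated at 0.76 to 0.81 within accessions and at -0.45 to -0.27 between them. Deviations from a mean of 3 libraries sum to 0, so the negative values follow from the positive ones and add no evidence. The script was tested on simulated data, in which only genes at higher TPM than most called genes were changed. That test therefore does not bear on calls at low levels or on values listed at 0. Alternatives are given in the closing section.

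Named genes were the called genes with the largest changes, with and without an Arabidopsis match, the 16 loci whose identifiers stand in the study's text or primer list (loci labelled only inside its graphs were not looked up), up to 4 members per list with a mean of at least 1 TPM, and the 10 genes of highest mean TPM. The members and lists were chosen with earlier results of these data known. Matches were at hand for 3060 coding genes, from identifiers that the study lists for genes it reported as changed, and symbols of Arabidopsis loci were recalled and not looked up. The 4236 non-coding rows were not tested. Descriptive steps used Python 3.11.15 with pandas 2.3.3, numpy 2.4.6 and matplotlib 3.10.9.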

Additional observations from a re-analysis of the deposited data

Results flagged for a closer look

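The summed TPM of genes matched to the chloroplast genome was higher at 2 hai than at 0 hai in C129, with a log2 ratio of 1.59, and lower in C033, with a log2 ratio of -0.34. It is singled out because the accessions moved in opposite directions. The same holds for the sum over genes matched to the mitochondrial genome, with log2 ratios of 1.79 in C129 and -0.45 in C033. Most of that sum was 1 gene, BnaCnng12510D. The difference between accessions was not tested, since each accession has 1 library at each time. Groups of 3 libraries are too small for a check of single outlying libraries.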

How the results depend on the processing

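The counts of genes that rose and fell, 20 and 6, moved under most alternatives. They were 6 and 3 with a minimum of 5 TPM, 2 and 2 with no minimum, 4 and 3 after median-of-ratios scaling, 5 and 3 when the coding TPM of each library were set to one total, 2 and 0 in a fit of all 15 libraries, and 5 and 3 with the trend and robust options off. Without the replicate block, that is without pairing by accession, they were 0 and 1. With 1 accession left out they ranged from 10 to 98 for rises and from 7 to 57 for falls, each over 2 pairs. With a pseudocount of 0.1 TPM they were 18 and 6, of which 12 and 3 were among the genes called with 1 TPM. The causes of these shifts were not tested. BnaC02g48330D was called in 10 of 11 alternatives and BnaC06g27900D in 9 of 10. Both passed the filter only through the libraries of 1 time and so had to differ, which makes their kept calls no support. The call was kept in 1 alternative only by 7 of the 26 called genes (BnaA02g17670D, BnaA07g29880D, BnaA07g30920D, BnaAnng22510D, BnaC01g01260D, BnaC06g43940D and BnaC09g15530D). No called gene changed sign under these alternatives.

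The counts past the fold rule in all 3 accessions, 5 up and 4 down, were 258 and 51 with 0.1 TPM added and 727 and 130 with 0 set to 0.0001 TPM. Over 2 accessions they ranged from 36 to 52 up and from 19 to 40 down. Both scalings gave 4 or 5 up and 3 or 4 down. The mean log2 ratio of the chloroplast sum ranged from -0.09 to 0.88 and that of the mitochondrial sum from -0.13 to 0.99 with 1 accession left out. Of 81 named genes not called, 2 (BnaC01g26990D without C129 and BnaCnng12510D without C033) were called in 1 alternative each. Low depth limits genes near 1 TPM.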
